A study of Mus musculus with 4 samples.

Results

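The 10 genes described here mark blood vessel endothelium or carry its growth factor and adhesion signals in the mouse retina. They were taken by name from the table of 52636 genes: Pecam1, Cdh5 and Cldn5 of the junctions between endothelial cells, the VEGF receptor genes Kdr and Flt1 with the ligand gene Vegfa, the TIE receptor genes Tek and Tie1, the secreted factor gene Egfl7 and the adhesion molecule gene Vcam1. All 10 were found and all passed the filter on low values (a mean of at least 10 normalized counts). Whole retina from 3-week-old mice was compared between 2 wild-type libraries (WT) and 2 libraries from mice with Q344X, a mutation that causes a dominant form of retinitis pigmentosa in people, in which photoreceptors are lost. Strain, sex, litter, the number of mutant copies and the way the allele was made are not in the labels. The design text counts 2 animals per genotype, left from 3 after poor RNA and outliers were dropped, although 3 Q344X and 2 WT mice stand in the protocol for extraction.

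Endothelial cells line the retinal capillaries and, joined by tight junctions, form the inner blood-retina barrier. Neurons and glia secrete VEGF-A, which drives sprouting through its receptor VEGFR2 (Kdr), while VEGFR1 (Flt1), which also has a soluble form, binds the ligand and holds signalling down. Angiopoietins act through TEK, and TIE1, its relative, has no established ligand of its own and tunes TEK signalling. At about 3 weeks of age the mouse retinal vasculature is still completing its deeper layers.

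The libraries held 18452679 to 19706573 reads in genes, recovered from the normalized values, and the value of 1 read was close to 1 normalized count. Genes of the neural retina were abundant in every library, for example Sag, encoding rod arrestin, at 121577 to 133700 normalized counts (gene counts divided by a size factor per library). Of 16833 genes tested, 919 (5.46%) were higher and 1531 (9.1%) were lower in Q344X (limma on log2(normalized count + 1), Benjamini-Hochberg adjusted p under 0.05). A correction for gene length and GC content turned this split into 2011 higher and 1972 lower genes. The median log2 fold change, always given as Q344X minus WT, was 0.02.

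Expression of 3 of the 10 genes rose in the Q344X retina, Tie1, Egfl7 and Vcam1 by 0.87 or more on the log2 scale, and none fell. Of the other 7, Pecam1, Cdh5 and Cldn5 had higher values in both Q344X libraries without passing the threshold, Kdr was spread widely within each genotype, and Flt1, Tek and Vegfa had fold changes slightly below 0. The share that rose, 3 of 10, is read beside 5.46% of all genes tested, and the share that fell, 0 of 10, beside 9.1%. At an unadjusted p under 0.05 the limma counts were 6 higher and 0 lower of 10. Over all 16833 genes tested they were 2690 higher and 3143 lower. The edgeR test on recovered reads gave 3 higher and 0 lower genes among 861 (5.11%) and 1559 (9.26%) over all genes tested, and DESeq2 gave 4 and 0 among 1266 (6.76%) and 1778 (9.49%). In whole tissue, more endothelial cells, more RNA per endothelial cell and changes in the RNA of other cells cannot be told apart. The 10 neural retina markers summed to 415075 and 456423 normalized counts in WT and 275691 and 308502 in Q344X. Their part in the values of the 10 genes described here was not tested. In 7 of the 10 genes WT and Q344X values did not overlap, against 63.1% of all tested genes. Q344X was above WT in 6 of them (31.4% of all tested genes) and below it in 1, Flt1 (31.7%). The median log2 fold change of the 10 was 0.74.

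**Figure D1:**
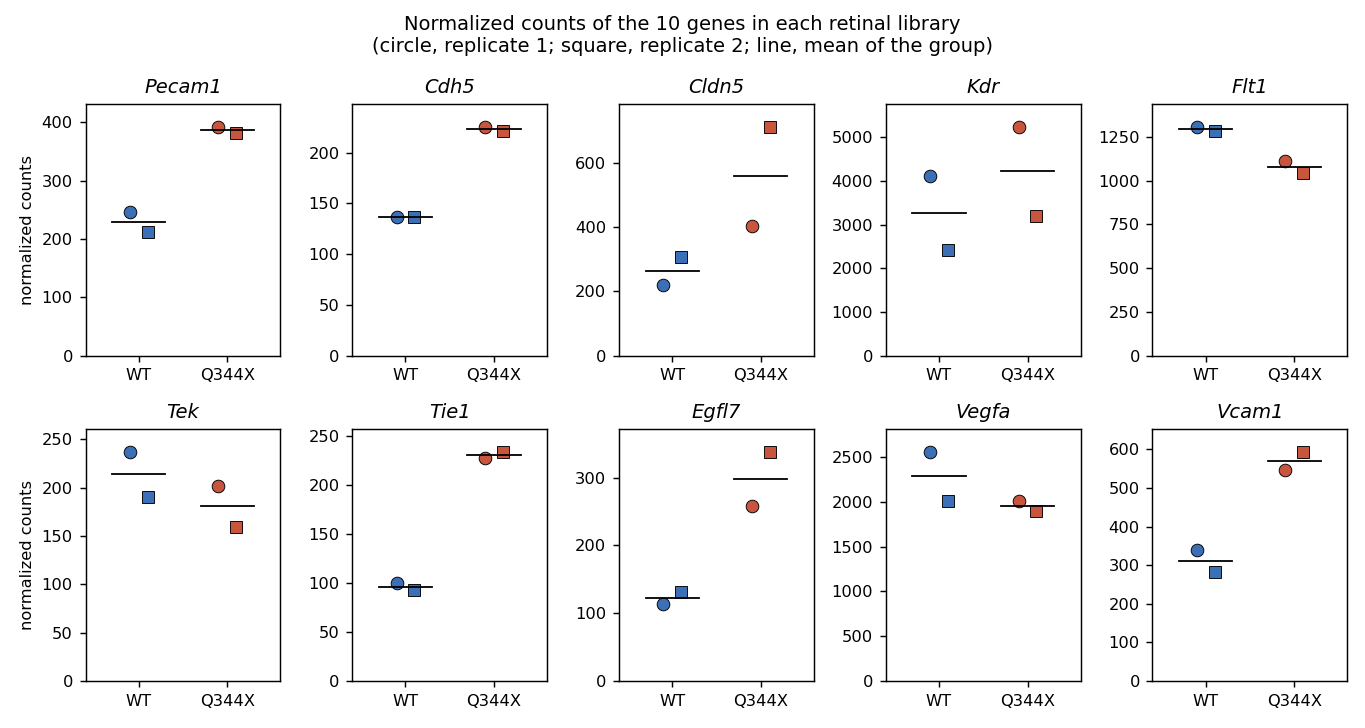
Normalized counts (vertical axes, from 0) of each of the 10 genes in the 2 WT and 2 Q344X libraries, with circles for replicate 1, squares for replicate 2 and lines for group means. The Q344X libraries lie above both WT libraries for Pecam1, Cdh5, Cldn5, Tie1, Egfl7 and Vcam1, whereas replicate 1 lies well above replicate 2 in both genotypes for Kdr.

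The sequence before the transcription start was read for the genes with a RefSeq entry on GRCm38.p6, which were 7 of the 10 (10 start sites of Cldn5, Kdr, Flt1, Tek, Tie1, Egfl7 and Vegfa). Shown are the windows of the TIE receptors, of which Tie1 rose and Tek did not, of Egfl7, which rose, and of Flt1, which did not, each 5′ to 3′ on the strand of its gene and cut where an annotated exon begins. Egfl7 has 3 start sites in the table, of which the middle is shown; of the windows left out, 1 holds 3 ETS matches and 1 holds none. Capitals mark AGGAAG or its reverse complement CTTCCT, letters of the core bound by ETS factors, which are known regulators of endothelial genes.
Tie1, chr4:118490062-118490099, minus strand: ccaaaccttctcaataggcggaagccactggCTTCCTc
Tek, chr4:94739039-94739288, plus strand: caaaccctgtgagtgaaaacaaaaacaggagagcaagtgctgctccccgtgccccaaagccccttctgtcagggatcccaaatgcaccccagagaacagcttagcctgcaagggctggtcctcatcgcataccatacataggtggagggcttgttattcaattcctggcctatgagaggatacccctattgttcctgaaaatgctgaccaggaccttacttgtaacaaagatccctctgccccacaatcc
Egfl7, chr2:26583615-26583863, plus strand: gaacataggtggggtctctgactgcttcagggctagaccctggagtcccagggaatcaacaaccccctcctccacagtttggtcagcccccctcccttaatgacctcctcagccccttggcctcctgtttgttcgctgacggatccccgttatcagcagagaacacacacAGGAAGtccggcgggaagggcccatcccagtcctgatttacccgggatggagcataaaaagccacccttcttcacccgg
Flt1, chr5:147726012-147726261, minus strand: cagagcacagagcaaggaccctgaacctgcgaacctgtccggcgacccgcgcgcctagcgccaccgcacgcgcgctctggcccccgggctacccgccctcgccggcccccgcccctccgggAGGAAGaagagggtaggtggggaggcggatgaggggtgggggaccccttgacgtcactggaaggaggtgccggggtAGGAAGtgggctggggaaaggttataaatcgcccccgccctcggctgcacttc
In the 250 bases before the start, Egfl7, Tie1 and Flt1 held these letters and Tek, Kdr, Cldn5 and Vegfa did not, that is 3 of 7 genes or 4 of 10 windows, against 29.5% of 32817 windows of the same length. The genes that hold them therefore include 2 that rose and 1 with a fold change below 0. The hypoxia response letters ACGTG (or CACGT) were in 1 of the 10 windows, against 16.6% of all windows. That window, of an inner start site of Vegfa, begins inside an annotated exon. A 10-letter NF-kB pattern with 3 free positions was in 2 windows, of Kdr and Vegfa, against 4.29%. A 7-letter SOX pattern with 1 free position was in 1 window, of Tek, against 6.91%. The letters searched for GATA factors, AGATAA, were in 1 window, of Vegfa, against 9.99%. All patterns were searched on both strands. A match is only a match of letters, not a binding site.

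Among the junction genes, Pecam1 encodes CD31, an adhesion molecule of endothelial contacts and of platelets and some leukocytes (ENSMUSG00000020717, chromosome 11, 106654217 to 106750628, GRCm38). It had 246 and 212 normalized counts in WT replicates 1 and 2 and 393 and 382 in Q344X replicates 1 and 2. Both mutant libraries were above both WT libraries, and the difference was larger than the gap between replicates. The log2 fold change was 0.76 ± 0.20 (SE, n = 2 libraries per group, 95% interval 0.28 to 1.24), with a limma adjusted p of 0.0536, just outside the threshold. Pecam1 did pass without Q344X replicate 1 (adjusted p = 0.0437), under quantile normalization (0.0434) and with the length and GC correction (0.0227), and over the 15 alternatives its adjusted p reached 0.338.

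Cdh5 encodes VE-cadherin, the adherens junction cadherin of endothelium (chromosome 8, 104101625 to 104144511). Its replicates were nearly equal, at 136 and 136 in WT and 226 and 222 in Q344X, with no overlap. A log2 fold change of 0.71 ± 0.20 (SE, 95% interval 0.22 to 1.20) had a limma adjusted p of 0.0659, which ranged from 0.0383 to 0.365 over the alternatives. Cldn5 encodes claudin-5, the main claudin of barrier endothelium (chromosome 16, 18776847 to 18778262). It had 219 and 307 normalized counts in WT and 404 and 712 in Q344X. The groups did not overlap, but the Q344X libraries differed from each other by more than the highest WT library differed from the lowest Q344X library. Its log2 fold change of 1.04 ± 0.33 (SE, 95% interval 0.23 to 1.85) had a limma adjusted p of 0.0843. The size rested on single libraries: it was 1.45 without Q344X replicate 1 (adjusted p = 0.000366) and 0.64 without Q344X replicate 2 (0.128), and without WT replicate 1 the adjusted p was 0.251. DESeq2 on the recovered reads called it (adjusted p = 0.0159) and edgeR did not (0.0828).

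None of the 3 VEGF genes passed the threshold. Vegfa itself (chromosome 17, 46016993 to 46032369) had 2558 and 2012 normalized counts in WT and 2015 and 1897 in Q344X. The Q344X replicate 1 value lay just above WT replicate 2, so the groups overlapped. Its log2 fold change was -0.21 ± 0.19 (SE, limma adjusted p = 0.468), with a 95% interval of -0.69 to 0.26.

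Kdr, the VEGFR2 gene (chromosome 5, 75932827 to 75978458), had 4105 and 2418 normalized counts in WT and 5248 and 3196 in Q344X. Replicate 1 was higher than replicate 2 by 1.70-fold in WT and by 1.64-fold in Q344X, and the genotypes overlapped. The log2 fold change of 0.38 ± 0.35 (SE, 95% interval -0.47 to 1.23, limma adjusted p = 0.474) leaves its direction undetermined. Without WT replicate 2 it was -0.0032, and without WT replicate 1 it was 0.76. Over the 2710 tested genes with more than 8 kb of annotated exon, the median log2 difference, replicate 1 minus replicate 2, was 0.11 in WT and 0.33 in Q344X, against 0.76 and 0.72 for Kdr. The other 2 of the 10 genes in that length class did not share the size of the Kdr difference, with 0.03 and 0.09 for Flt1 and 0.27 and -0.12 for Vcam1. In the 3115 tested genes with up to 2 kb of exon the same medians were -0.11 and -0.30, and Cldn5, with 1416 bases, had -0.48 and -0.82. The part of exon length in these values was not tested further.

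Flt1, the VEGFR1 gene (chromosome 5, 147561604 to 147726011), was steadier, at 1310 and 1285 in WT and 1113 and 1046 in Q344X. Both mutant libraries were below both WT libraries. The log2 fold change was -0.27 ± 0.17 (SE, 95% interval -0.68 to 0.15, limma adjusted p = 0.307), so a fall beyond 0.68 on the log2 scale lies outside the interval. Counts per gene do not separate the membrane and soluble forms of Flt1.

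Of the TIE receptor genes, Tie1 passed the threshold and Tek did not. Tie1 (ENSMUSG00000033191, chromosome 4, 118471191 to 118490061) rose from 99.8 and 93.2 normalized counts in WT to 228 and 234 in Q344X. The replicates of each genotype lay close together and the genotypes far apart. Its log2 fold change was 1.25 ± 0.21 (SE, 95% interval 0.74 to 1.76, limma adjusted p = 0.0201). Its call ended without WT replicate 2 (adjusted p = 0.0711). Tek, the angiopoietin receptor gene (ENSMUSG00000006386, chromosome 4, 94739289 to 94874976), had 237 and 190.5 in WT and 202 and 159 in Q344X, with overlap between the genotypes. Its log2 fold change of -0.24 ± 0.24 (SE, 95% interval -0.83 to 0.34) did not pass (limma adjusted p = 0.505).

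Set against each other per kb of exon within a library, Tek stood above Tie1 in WT and below it in Q344X. The ratio of Tek to Tie1 was 2.48 and 2.13 in the WT libraries and 0.926 and 0.710 in the Q344X libraries, a difference of -1.50 on the log2 scale with no overlap. Such a ratio does not depend on how a library is scaled. The differences between ratios were not tested. Per kb, Flt1 was 0.213 and 0.355 of Kdr in WT and 0.142 and 0.219 in Q344X, which overlapped. Vegfa was 1.31 and 1.75 times Kdr in WT and 0.809 and 1.25 times in Q344X. These did not overlap, but only narrowly, at 1.31 in WT replicate 1 against 1.25 in Q344X replicate 2.

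**Figure D2:**
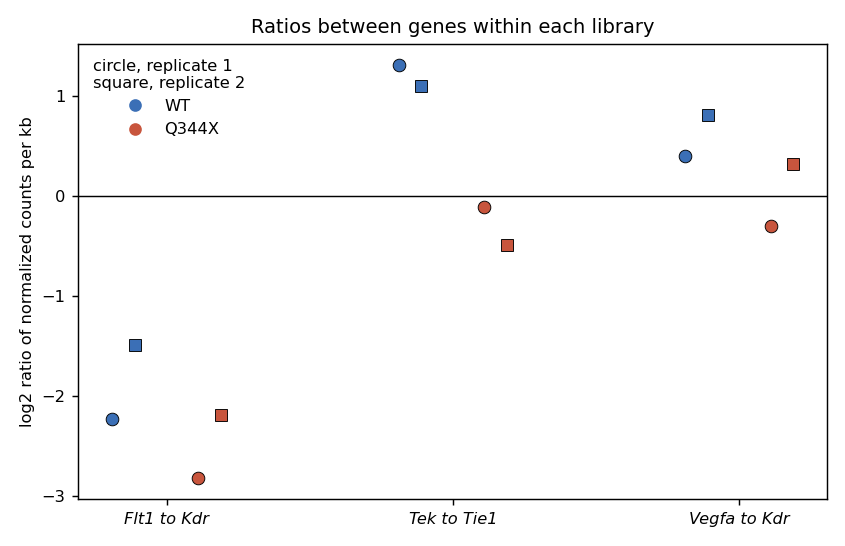
Log2 ratios of normalized counts per kb of exon (vertical axis) for Flt1 to Kdr, Tek to Tie1 and Vegfa to Kdr in each library, with circles for replicate 1 and squares for replicate 2. The Tek to Tie1 ratio lies at 1.31 and 1.09 in WT and at -0.11 and -0.49 in Q344X, while the Flt1 to Kdr ratios of the genotypes overlap.

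Egfl7, which encodes a secreted EGF-like protein made by endothelial cells and hosts the microRNA miR-126 (ENSMUSG00000026921, chromosome 2, 26580014 to 26593120), rose from 113 and 131 normalized counts in WT to 258 and 338 in Q344X. Both mutant libraries were far above the WT libraries. The log2 fold change was 1.27 ± 0.24 (SE, 95% interval 0.69 to 1.85, limma adjusted p = 0.0256), and the call ended without WT replicate 1 (adjusted p = 0.0692). Exons of Egfl7 overlap those of 4 other annotated genes, among them Agpat2 on the opposite strand, and whether the counting used strand is not stated, so its reads may not all be its own. Agpat2 was low, at 37.4 and 40.1 in WT and 40.6 and 57.6 in Q344X, and the other overlapping genes, Gm20532, Mir126a and Mir126b, were listed at 0 in every library. Poly-A selected libraries do not measure mature miR-126.

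Vcam1 encodes the vascular adhesion molecule that leukocytes bind through the integrin alpha 4 beta 1 (ENSMUSG00000027962, chromosome 3, 116109949 to 116129688). Its values were 340.1 and 283 normalized counts in WT and 545 and 593 in Q344X, with no overlap. The log2 fold change was 0.87 ± 0.20 (SE, 95% interval 0.39 to 1.36, limma adjusted p = 0.0393). This call ended without WT replicate 1 (adjusted p = 0.112) or 2 (0.258) and with no trend of variance on the mean (0.0633), at log2 fold changes of 0.74 to 1.01. An antisense gene that overlaps its exons, Gm43109, had between 0 and 3.01 normalized counts. Testing every gene above 0 in place of the filter ended the calls of Tie1 (adjusted p = 0.0580), Egfl7 (0.0712) and Vcam1 (0.0845).

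**Figure D3:**
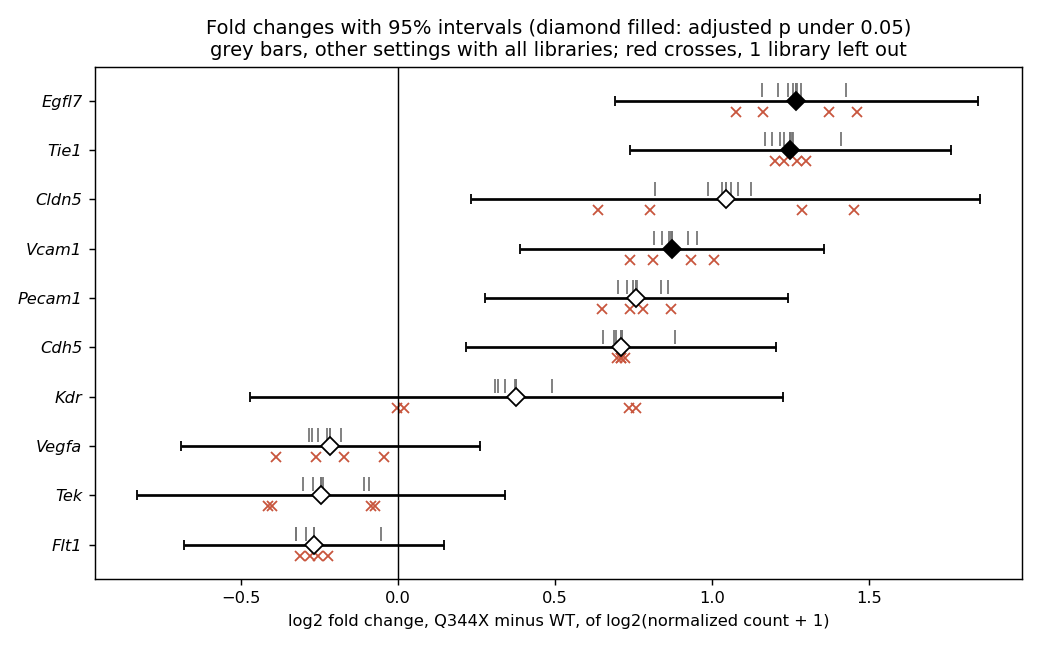
Log2 fold changes, Q344X minus WT (horizontal axis), of the 10 genes with 95% intervals from limma, diamonds filled where the adjusted p was under 0.05. Grey bars are the values under other settings with all 4 libraries and red crosses those with 1 library left out; Tie1 and Egfl7 stay between 1.08 and 1.46, whereas Kdr crosses 0 without WT replicate 2.

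Compared per kb of annotated exon, in normalized counts, Vegfa stood highest in WT (533, mean of 2 libraries), followed by Kdr (361), Cldn5 (186), Flt1 (96.1), Tek (45.4), Pecam1 (36.8), Vcam1 (35.1), Egfl7 (34.2), Cdh5 (32.4) and Tie1 (19.6). From Pecam1 down to Cdh5 each gene overlapped the next in its WT libraries, so neighbours among those 4 were not separated. The ends of that run did not overlap, at 39.6 and 34.0 for Pecam1 and 32.4 and 32.4 for Cdh5. In Q344X the order was Kdr (468), Vegfa (456), Cldn5 (394), Egfl7 (83.2), Flt1 (79.9), Vcam1 (64.2), Pecam1 (62.2), Cdh5 (53.2), Tie1 (47.0) and Tek (38.3). There the libraries of Kdr and Vegfa, of Vegfa and Cldn5, of Egfl7 and Flt1 and of Vcam1 and Pecam1 overlapped. Egfl7 moved from the 8th to the 4th place and Tek from the 5th to the 10th. By longest transcript, Egfl7 moved from the 7th to the 4th place and Tek only from the 8th to the 10th. With the length of the longest transcript in place of the union of exons, 5 of the 10 genes kept their WT place and all 10 kept their Q344X place, so the middle of the WT order rests on the length chosen.

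**Figure D4:**
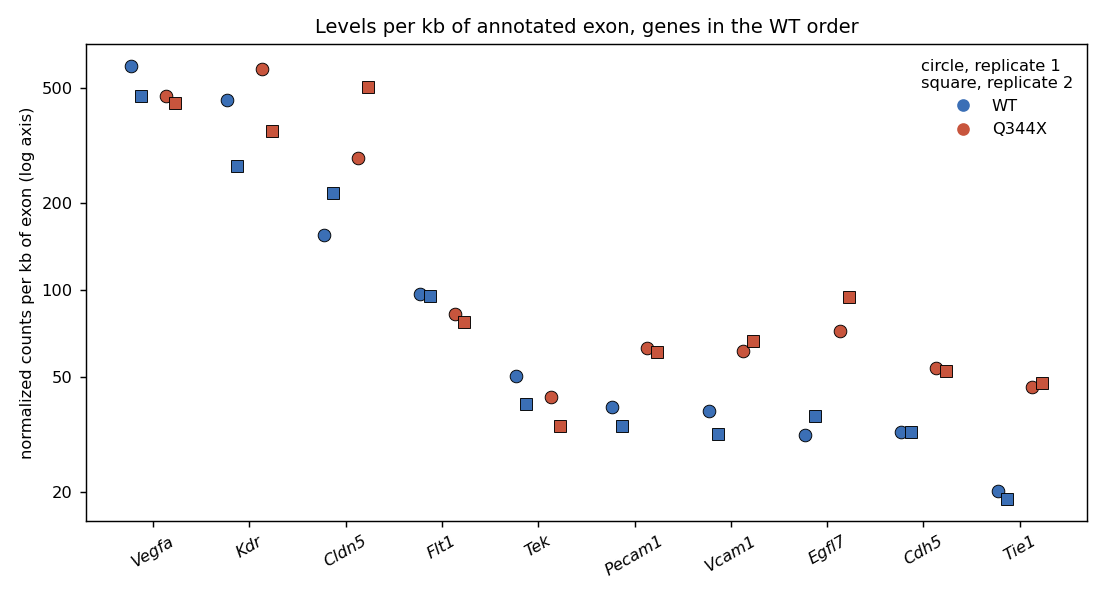
Normalized counts per kb of annotated exon (logarithmic vertical axis) for each gene and library, ordered by the WT mean, with circles for replicate 1 and squares for replicate 2. Vegfa, Kdr and Cldn5 lie above the rest in both genotypes, and Tie1 is lowest in WT while Tek is lowest in Q344X.

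Among 29 other genes of endothelial cells that were tested, 3 rose, 1 fell and 25 missed the threshold, with a median log2 fold change of 0.39, against 0.02 over all tested genes. Fold changes were above 0 in 19 of the 29 and below 0 in 10. At an unadjusted p under 0.05 in limma 6 were higher and 3 lower, beside 2690 and 3143 of 16833 genes tested. Aplnr, the apelin receptor gene of sprouting and venous endothelium, had 12.5 and 16.0 normalized counts in WT and 92.1 and 98.9 in Q344X (log2 fold change 2.67 ± 0.31, SE, limma adjusted p = 0.00903). It was called under each of the 15 alternatives. Ramp2, the adrenomedullin receptor partner (0.90), and Vwf, von Willebrand factor (0.88, named after its value was seen), also rose, but both lost their calls without either WT library and Ramp2 in 10 of 15 alternatives. Ly6a, which encodes the surface antigen Sca-1, fell, with 111 and 134 in WT and 45.5 and 39.4 in Q344X (-1.51 ± 0.26), with an adjusted p of 0.0817 once WT replicate 2 was left out.

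Ligands of TEK and their relatives changed in both directions. Of 8 angiopoietin and TIE genes, 3 rose, 1 fell and 4 did not pass. Angpt2, a TEK ligand that can destabilize vessels, had 74.9 and 90.2 normalized counts in WT and 186 and 182 in Q344X (limma adjusted p = 0.0291). Its adjusted p was 0.145 without WT replicate 1 and 0.0592 without WT replicate 2. Angpt4, another TEK ligand, rose from 16.6 and 18.05 to 56.4 and 60.5 (log2 fold change 1.70 ± 0.31). It kept its call without any 1 library but lost it with no filter. Angptl4 (1.34) rose and Angptl2 (-1.03, named after its value was seen) fell, both related in sequence to angiopoietins but not ligands of TEK; Angptl4 lost its call without WT replicate 2 or Q344X replicate 2 and under both count models, and Angptl2 lost its call without either WT library. Angpt1, the activating ligand of TEK, had -0.44 ± 0.29 (adjusted p = 0.325; named after its value was seen).

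Notch and BMP genes of vessels gave 2 higher, 1 lower and 11 that missed the threshold among 14 tested, with a median of 0.24. Dll4, the Notch ligand of endothelial tip cells and arteries, rose from 41.6 and 35.1 normalized counts in WT to 166 and 161 in Q344X (log2 fold change 2.07 ± 0.25, SE, limma adjusted p = 0.00958), with no overlap. Like Aplnr, it was called under each of the 15 alternatives. Heyl, a Notch target of mural cells, rose by 1.33 ± 0.27, and lost its call without WT replicate 1, WT replicate 2 or Q344X replicate 2 (adjusted p up to 0.0977 over the alternatives). Jag1, a Notch ligand that retinal glia and neurons also express, fell from 3498 and 3172 to 1364 and 961 (-1.54 ± 0.22).

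Of the 9 tested VEGF and neuropilin genes 0 passed in limma (1 higher and 0 lower at an unadjusted p under 0.05, 0 in edgeR and 0 in DESeq2). Nrp2, Sema3e and Vegfb, with the highest mean counts of these, had log2 fold changes of 0.06, -0.37 and -0.24. Norrin and Wnt genes, on which the deeper retinal vessels depend, gave 0 of 13 in limma (0 higher and 1 lower at an unadjusted p under 0.05, 0 in edgeR and 1 lower in DESeq2). Among them Ctnnb1, Lrp6 and Fzd4 had 0.41, -0.16 and -0.24.

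Among 16 tested genes of the blood-retina barrier 1 rose, 1 fell and 14 missed the threshold, with a median of -0.10. Abcg2, an efflux transporter, rose from 284 and 244 normalized counts to 558 and 450.1 (log2 fold change 0.93 ± 0.21, SE, limma adjusted p = 0.0405), and Marveld2, encoding tricellulin of tight junctions, fell from 112 and 106 to 31.7 and 53.7 (-1.38 ± 0.33, adjusted p = 0.0449). Both lost their calls without either WT library. Bsg, which is not specific to vessels, had -0.02.

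Among 9 tested adhesion genes and partners of VCAM1, 1 rose, 1 fell and 7 missed the threshold. Mcam, the CD146 gene of endothelial and mural cells, rose from 120 and 127 normalized counts in WT to 405 and 300.4 in Q344X (log2 fold change 1.49 ± 0.23, SE, limma adjusted p = 0.0173). Its call was kept without any 1 library but lost with no filter. Selplg, the selectin ligand of leukocytes, fell by 1.33 on the log2 scale and lost this call with all but 1 of the single libraries left out (adjusted p up to 0.201). Jam2, a junctional adhesion molecule, had 0.43 ± 0.17 (adjusted p = 0.142). The endothelial selectin genes Sele and Selp, named after their values were seen, were listed at 0 in every library.

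Genes of the hypoxia response, of which Vegfa is a target, moved in both directions. Of 18 tested, Ndrg1 rose (log2 fold change 1.18 ± 0.19, SE), P4ha1 (-1.19 ± 0.19) and Pdk1 (-0.79 ± 0.17) fell, and 15 did not pass, with a median of -0.13. Limma adjusted p was 0.0177, 0.0187 and 0.0358. Without WT replicate 1 all 3 lost their calls, and Pdk1 also did without WT replicate 2.

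**Figure D5:**
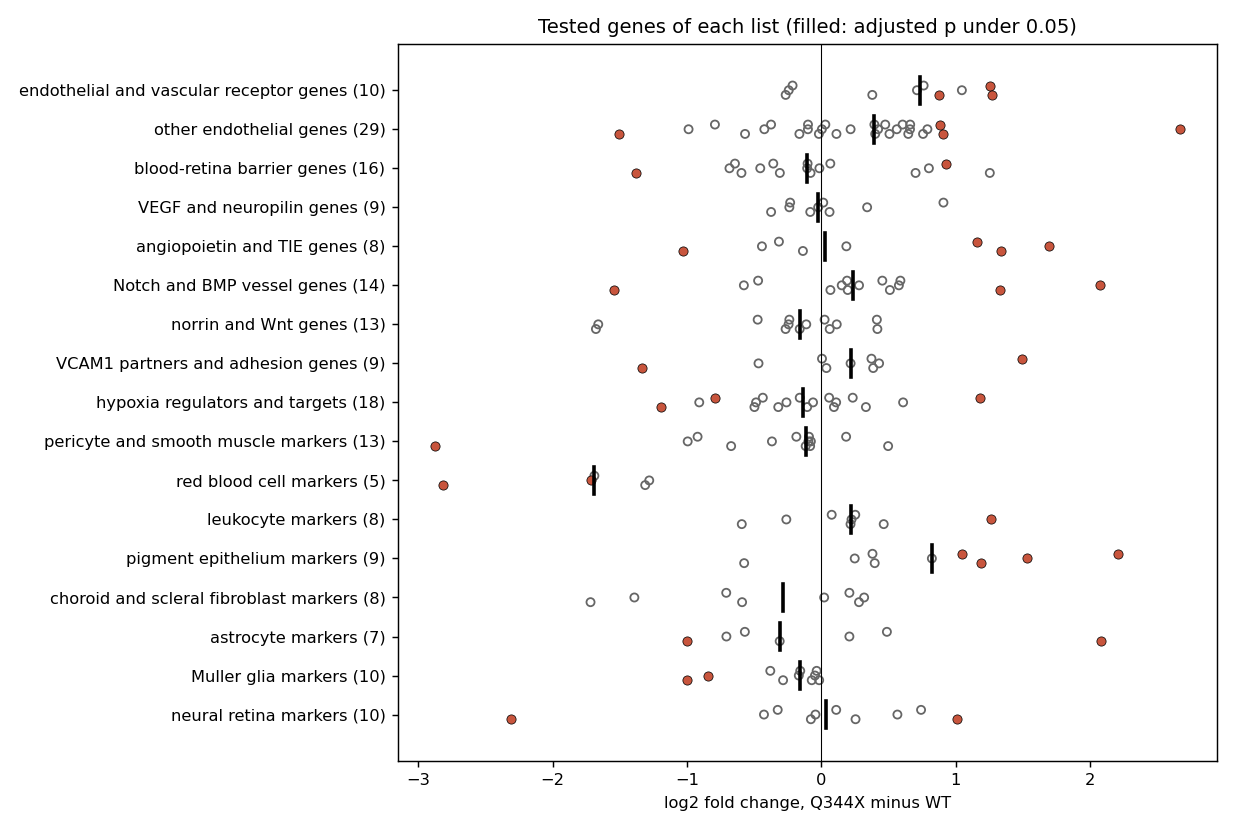
Log2 fold change, Q344X minus WT (horizontal axis), of every tested gene in 17 gene lists, filled where the limma adjusted p was under 0.05, with a bar at each list median and the number of tested genes in brackets. The medians lie at 0.74 for the 10 genes described here, 0.39 for other endothelial genes, 0.82 for pigment epithelium markers and -1.69 for red blood cell markers.

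Markers of other cells in a retinal dissection stood as follows beside the endothelial values, and their part in those values was not tested. Of 9 pigment epithelium markers 4 rose, among them Slc16a8 (log2 fold change 2.21), Pmel (1.53) and Rpe65 (1.19). Slc16a8 and Pmel kept their calls without any 1 library, and Rpe65 lost its call without WT replicate 2. With no filter all 4 lost their calls. The other 5 missed the threshold, and Tyrp1, named after its value was seen, was lower in both Q344X libraries (-0.58, adjusted p = 0.0923 in limma). The summed level of the list, without Trpm1, which bipolar cells express, was 4329 to 4823 normalized counts in WT and 6205 to 8111 in Q344X, and no gene of the list was at 0. The pigment epithelium borders the choroid, which has its own endothelium. Choroid and scleral fibroblast markers gave 0 of 8 past the threshold in limma (0 higher and 3 lower at an unadjusted p under 0.05, 0 in edgeR and 1 lower in DESeq2), with sums of 2651 to 2821 in WT and 2338 to 2641 in Q344X. Of 5 red blood cell genes 2 fell, Hbb-bt (-2.82) and Hba-a1 (-1.72, lost without WT replicate 1). All 5 were lower at an unadjusted p under 0.05 in limma, beside 3143 of 16833 genes tested. By adjusted p, edgeR gave 2 lower and DESeq2 gave 3. Sums of the list were 494 to 525 in WT and 127 to 266 in Q344X. Reads of the globin genes are uncertain because their sequences are nearly alike. Of 13 mural cell markers only Vtn fell (-2.87), which photoreceptors also express, and the pericyte genes Rgs5 and Pdgfrb had -0.09 ± 0.20 and -0.08 ± 0.25 (SE, limma adjusted p = 0.767 and 0.847). Without Vtn the mural sum was 3183 to 3775 in WT and 2846 to 3456 in Q344X. Of 8 leukocyte markers 1 rose, Coro1a (1.26, lost without WT replicate 1), and the microglial genes Csf1r and Cx3cr1 had 0.22 and 0.25, with sums of 599 to 675 in WT and 789 to 957 in Q344X. Without Coro1a these sums overlapped, at 462 to 571 in WT and 556 to 605 in Q344X. Among the neural retina markers the rod gene Gnat1 fell (-2.31). Astrocyte markers gave 1 higher and 1 lower gene of 7, and Müller glia markers 2 lower of 10. The lower astrocyte gene is in both lists and is counted in each. All 10 Müller glia fold changes were below 0.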

How the data were processed

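Bulk RNA sequencing of poly-A selected RNA from whole retina gave 4 libraries (2 WT, 2 Q344X). The deposited table holds, per Ensembl gene and library, a signal: the count divided by that library's size factor, as the authors deposited it. Per the submitters' processing notes, the tools included DESeq2 1.16.1, featureCounts, STAR, FastQC and Trim Galore 0.4.4, and the build was mm10. Their roles, the annotation and the strand setting are not given in the sources used. Per the labels' protocols, the library kit was directional.

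Symbols were paired by identifier for 52403 of 52636 genes. Positions and lengths came from GENCODE M21 (GRCm38), and promoter windows from RefSeq (GRCm38.p6). Genes with a mean of at least 10 were tested on log2(value + 1) with limma 3.58.1 in R 4.3.3 (trended empirical Bayes, 2 residual and 3.90 prior degrees of freedom, two-sided, Benjamini-Hochberg over 16833 genes, threshold 0.05). Fold changes on this scale understate those of low genes. All deposited values above 0 (100%) were within 0.1 of a whole multiple of 1 read's worth, and edgeR 4.0.16 and DESeq2 1.42.0 were run on these recovered reads as alternatives added after the data were seen. The worth of a read was so near 1 in WT replicate 2 and Q344X replicate 1 that steps are hard to tell from whole numbers there. The remaining alternatives changed the pseudocount (0.5 or 5), the filter (none, or a mean of at least 50), the scaling (75th percentile, quantile) or the variance model (robust, untrended), corrected for exon length and GC content by loess, or left out each library.

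The 10 genes, the gene lists and the tests were chosen with earlier results of these data known. Named were all 10 genes and up to 3 genes per other list, by size of change among those called and then by mean level; others are marked as chosen after their values were seen. Gene Bmp9 of the Notch and BMP list had no match under that symbol. The result of 1 marker gene is not reported here.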

Additional observations from a re-analysis of the deposited data

How the results depend on the processing

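No paired analysis was possible because the labels carry no replicate numbers, and the numbers used here follow accession order. Of 150 combinations of the 10 genes with 15 alternatives, 133 kept the direction and the side of the threshold, 8 lost the call, 8 gained it and 1 turned, Kdr, which ranged from -0.0032 without WT replicate 2 to 0.7598 without WT replicate 1. Of the 10 genes, 3 were higher with all libraries, 0 with no filter (limma; 6 at an unadjusted p under 0.05), 5 under quantile normalization, 6 with the length and GC correction, and 1 to 5 with 1 library left out (1 without WT replicate 1, 1 without WT replicate 2 and 5 without Q344X replicate 1). None was lower in any of these fits. The main fit called 919 of 16833 tested genes higher, and quantile normalization 1033 of 16833. With the length and GC correction 16800 genes were tested, with no filter 30816, and with 1 library left out 16739 to 16875. Over all genes, no filter gave 153 higher and 383 lower, the length and GC correction 2011 higher, and leaving out 1 library 555 to 2388 higher and 904 to 3045 lower. With 1 library left out, the lone library of its genotype is assumed to vary like the intact pair. With longest transcript lengths 5 of the 10 genes kept their WT place in the order of levels. Those changes of count came with fewer libraries or more genes tested where a library was left out or the filter was dropped; for the other settings the cause was not tested. Depth limits the precision of genes near the filter, such as Aplnr and Angpt4 in WT.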
